A study of Homo sapiens with 12 samples.

Results

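The enzymes that make and recycle UTP and CTP, the pyrimidine nucleotides that RNA polymerases consume, were followed through 10 genes picked by name from the 60649 genes counted in each library. CAD, DHODH and UMPS build UMP from small precursors. CTPS1 and CTPS2 turn UTP into CTP. UCK1, UCK2 and UCKL1 belong to the uridine-cytidine kinase family, which recycles nucleosides into UMP and CMP. CMPK1 and NME1 add the phosphates that follow. RNA was sequenced from SBC3, an established human small cell lung cancer line, grown as spheroids, which are compact rounded cell clusters. The 12 libraries form 4 groups of 3: a control, teriflunomide alone, lurbinectedin alone, and both drugs together, called the combination here. All groups come from 1 cell line and the labels name no engineered allele. The labels state neither dose nor duration of treatment, nor whether the control received a vehicle. The series states its purpose only as the study of a treatment strategy.

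Cells obtain UMP either by synthesis from glutamine, bicarbonate and aspartate or by phosphorylating uridine taken up from outside. CAD is a single protein that carries out the opening reactions of synthesis. DHODH, in the inner mitochondrial membrane, oxidises dihydroorotate to orotate and passes the electrons to ubiquinone. UMPS then turns orotate into UMP. Teriflunomide inhibits the DHODH enzyme, which leaves salvage as the other route to UMP, and its action on the protein does not itself require a change in DHODH mRNA. Lurbinectedin binds DNA and interferes with transcription by RNA polymerase II, the enzyme that makes mRNA. The counts below measure mRNA, not enzyme activity or nucleotide pools.

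Promoter windows of 4 of the genes are shown because the results turn on them: DHODH, the target of teriflunomide, UMPS and UCK1, with the largest rises under lurbinectedin among the 9 of the 10 genes that could be tested, and UCK2, the one of those 9 called lower. All 10 genes matched the RefSeq promoter table (GRCh38.p14), with 13 windows of 300 bases in all, each running from 250 bases before a transcription start to 50 after it. Windows are written 5′ to 3′ on the strand of the gene, in the order chr16:72008494-72008793 (plus strand), chr3:124730202-124730501 (plus), chr9:131531214-131531513 (minus) and chr1:165827364-165827663 (plus). Capitals mark 3 motifs searched on both strands: the E-box CACGTG, the cyclic AMP response element TGACGTCA and the GC box GGGCGG or its reverse complement CCGCCC.
DHODH: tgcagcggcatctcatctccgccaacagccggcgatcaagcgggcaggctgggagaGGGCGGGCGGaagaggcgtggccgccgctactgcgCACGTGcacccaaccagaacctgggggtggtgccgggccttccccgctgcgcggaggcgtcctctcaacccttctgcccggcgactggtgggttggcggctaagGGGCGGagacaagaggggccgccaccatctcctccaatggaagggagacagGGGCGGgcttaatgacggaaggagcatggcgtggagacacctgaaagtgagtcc
UMPS: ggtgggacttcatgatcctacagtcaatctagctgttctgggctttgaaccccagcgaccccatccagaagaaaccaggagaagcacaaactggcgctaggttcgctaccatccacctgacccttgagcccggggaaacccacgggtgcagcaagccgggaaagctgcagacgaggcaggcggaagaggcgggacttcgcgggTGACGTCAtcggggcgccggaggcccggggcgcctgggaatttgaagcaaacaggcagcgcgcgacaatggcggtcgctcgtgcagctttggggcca
UCK1: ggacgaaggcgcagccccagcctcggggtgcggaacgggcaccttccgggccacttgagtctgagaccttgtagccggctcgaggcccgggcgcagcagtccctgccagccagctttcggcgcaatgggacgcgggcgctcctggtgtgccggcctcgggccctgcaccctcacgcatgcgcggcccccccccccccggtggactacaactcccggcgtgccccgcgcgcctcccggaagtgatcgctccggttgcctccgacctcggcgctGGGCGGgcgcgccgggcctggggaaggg
UCK2: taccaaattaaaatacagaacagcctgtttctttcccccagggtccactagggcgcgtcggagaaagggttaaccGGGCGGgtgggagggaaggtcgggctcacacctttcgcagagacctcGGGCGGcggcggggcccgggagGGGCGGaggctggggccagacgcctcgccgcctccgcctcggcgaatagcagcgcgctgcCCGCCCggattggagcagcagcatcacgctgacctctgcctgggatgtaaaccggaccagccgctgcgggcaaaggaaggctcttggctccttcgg
The E-box in the DHODH window begins 159 bases upstream of the RefSeq start, which lies inside the gene as counted (from base 72008588). UCKL1 has one 233 bases upstream and NME1 one inside the transcribed part, so 3 of the 13 windows hold it, against 7.26% of all 35116 windows in the table. The cyclic AMP response element was found in 1 of the 13 windows, that of UMPS, 47 bases upstream, and in 1.85% of all windows. The GC box was found in 7 of the 13 windows, each of a different gene, and in 45.0% of all windows. The windows of UMPS and UCK1 share none of these 3 motifs with each other. These matches describe letters and not sites of binding.

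Total counts ran from 23206414 to 33222162 per library. The share of counts on the 37 mitochondrially encoded genes was 6.26% to 7.17% in control and 8.42%, 8.43% and 22.6% with teriflunomide. It was 13.8% to 17.0% with lurbinectedin and 14.6%, 24.9% and 13.1% with the combination. Teriflunomide replicate 3 and combination replicate 2 therefore stand apart from their groups, and results that rest on them are also given without them. With the mitochondrially encoded genes left out, all 54 fitted values of the 9 genes tested below kept their direction and their side of the threshold, and the part of this share in the results was not tested otherwise. Against the labelled tumour type, the neuroendocrine marker INSM1 had 0 counts in all libraries, CHGA and NCAM1 were near 0, and SYP was present at 16.8 ± 0.765 CPM (counts scaled to a common library size; SD, n = 3) in control, 30.9 ± 1.42 with lurbinectedin and 34.1 ± 1.98 with the combination. NEUROD1, also neuroendocrine, went the other way: 4.03 ± 0.317 CPM in control, 1.62 ± 0.110 with lurbinectedin and 2.51 ± 0.463 with the combination. YAP1, a marker of another subtype, was at 246 ± 11.96 CPM in control, 64.9 ± 6.41 with lurbinectedin and 97.2 ± 26.7 with the combination. Of the epithelial markers, EPCAM and KRT18 were near 0 in all groups. KRT8 was at 243 ± 8.03 CPM in control, 422 ± 19.0 with lurbinectedin and 403 ± 36.5 with the combination. Of the markers of other cells, DCN, PTPRC, PECAM1 and CDH5 were at or near 0 in control, and COL3A1 was at 1.07 ± 0.206 CPM. COL1A1, a collagen gene, was at 266 ± 6.60 CPM in control, 107 ± 9.26 with lurbinectedin and 102 ± 8.26 with the combination. The part of these marker levels in the results was not tested. In bulk RNA, fewer cells of a kind and less RNA per cell cannot be told apart.

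Levels of different genes were compared per length, as TPM (counts divided by exon length and scaled to the same total in every library). In control, CMPK1 was the most abundant of the 10 at 163 ± 7.95 TPM (SD, n = 3). CAD at 98.7 ± 3.72 and NME1 at 94.6 ± 4.37 followed with overlapping libraries. UCK2 at 85.6 ± 2.21, CTPS1 at 74.7 ± 0.884, UCK1 at 44.9 ± 1.81, UMPS at 28.9 ± 1.09 and UCKL1 at 16.8 ± 0.686 came next, each separate from its neighbours. DHODH, at 10.7 ± 0.578 TPM, was the lowest of the 9 genes with enough counts to test, and CTPS2 was at 0.132 ± 0.0326. With lurbinectedin the order changed at the top: UCK1 led at 95.8 ± 7.43 TPM beside NME1, while CMPK1 stood at 77.4 ± 6.83 and UCK2 at 32.0 ± 3.67. DHODH remained the lowest of the 9 at 9.18 ± 0.566 TPM. Between control and lurbinectedin, CAD, DHODH, CTPS1 and NME1 were lower by mean TPM but higher by mean CPM, the scale used below. CAD stood at 77.7 TPM with lurbinectedin, CTPS1 at 62.4, and NME1 at 89.4 with libraries overlapping control. For any gene, TPM and CPM differ by exon length and by a factor that all genes of a library share. The opposite directions come from that shared factor, which was lower with lurbinectedin than in control, and are not particular to the genes named. Both scales are relative, and neither measures RNA per cell.

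**Figure D1:**
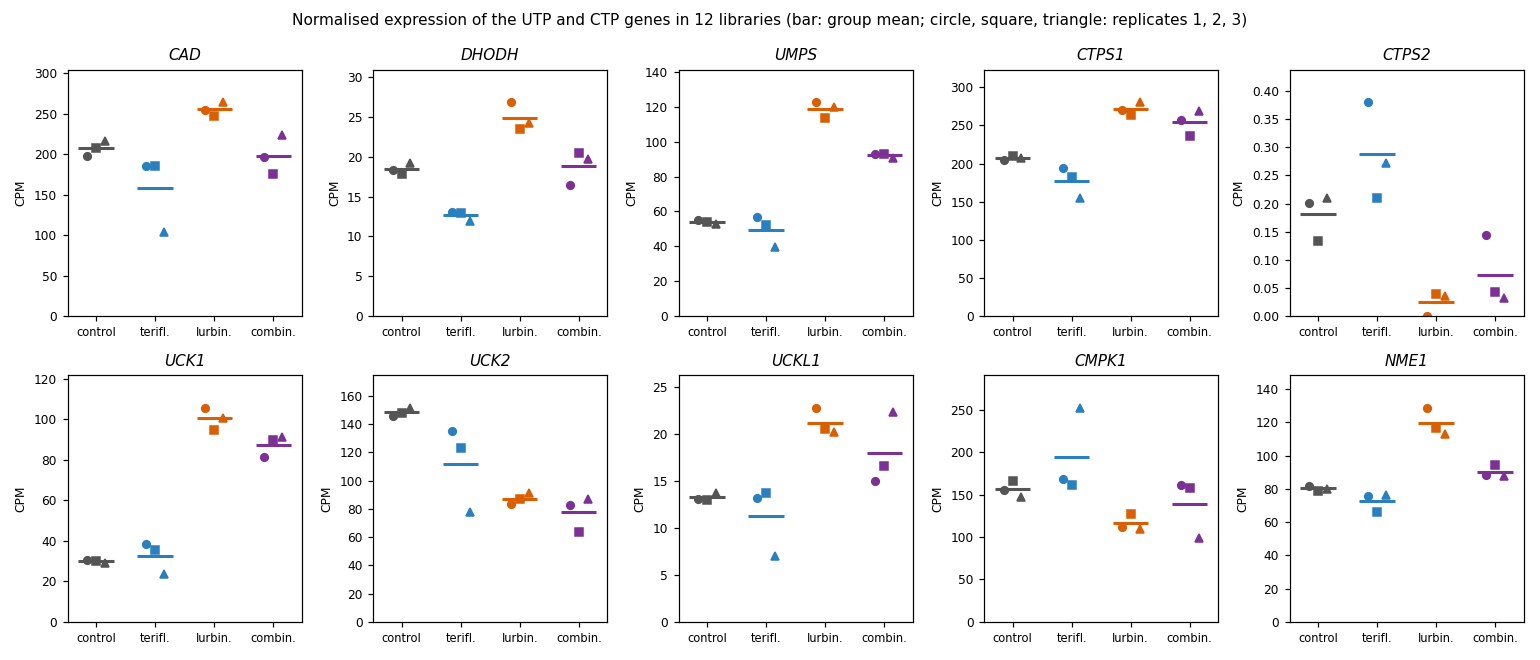
Expression in CPM (counts scaled to library size by TMM; vertical axes, each starting at 0) of the 10 genes in the 12 libraries; points are libraries and horizontal bars are group means. DHODH lies lowest with teriflunomide (11.9 to 13.1 CPM) and highest with lurbinectedin (23.5 to 26.9 CPM), and the CTPS2 panel holds only a few counts per library.

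Each comparison was tested with edgeR's quasi-likelihood test over 16683 genes, and calls were made at an adjusted p (Benjamini-Hochberg) below 0.05. Of the 10 genes, 9 passed the filter on low counts and CTPS2 did not. Teriflunomide against control called 1 of the 9, DHODH, lower, where 6.01% of all genes tested were called and 2.13% called lower. Lurbinectedin against control called 7 of the 9, with 6 higher and 1 lower, where 71.6% of all genes were called, 36.0% higher and 35.7% lower. The combination against control called 4, with 3 higher and 1 lower, against 68.4% of all genes, 34.1% higher and 34.4% lower. The combination against teriflunomide called 8, with 6 higher and 2 lower, against 70.9%, of which 35.2% higher and 35.8% lower. Most genes of any kind thus passed in these comparisons, and the counts alone say nothing particular about the 9. The combination against lurbinectedin called 0 of the 9 and 0% of all genes, with 3 of the 9 (DHODH, UMPS and NME1) and 2599 of all genes at an unadjusted p under 0.05, and DESeq2 called 2 of the 9 and 4.94% of all genes with an adjusted p. The interaction, the effect of teriflunomide beside lurbinectedin minus its effect alone, called 0 of the 9 with edgeR, 0 with DESeq2, and 0.258% of all genes. Without teriflunomide replicate 3 and combination replicate 2, teriflunomide called 2 of the 9 (16.3% of all genes), lurbinectedin 9 (79.6%), the combination 5 against control (74.2%) and 8 against teriflunomide (72.6%), and the interaction 2 (10.9%). Comparisons that share a control group share its libraries, so their values are set side by side and not counted as separate evidence.

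**Figure D2:**
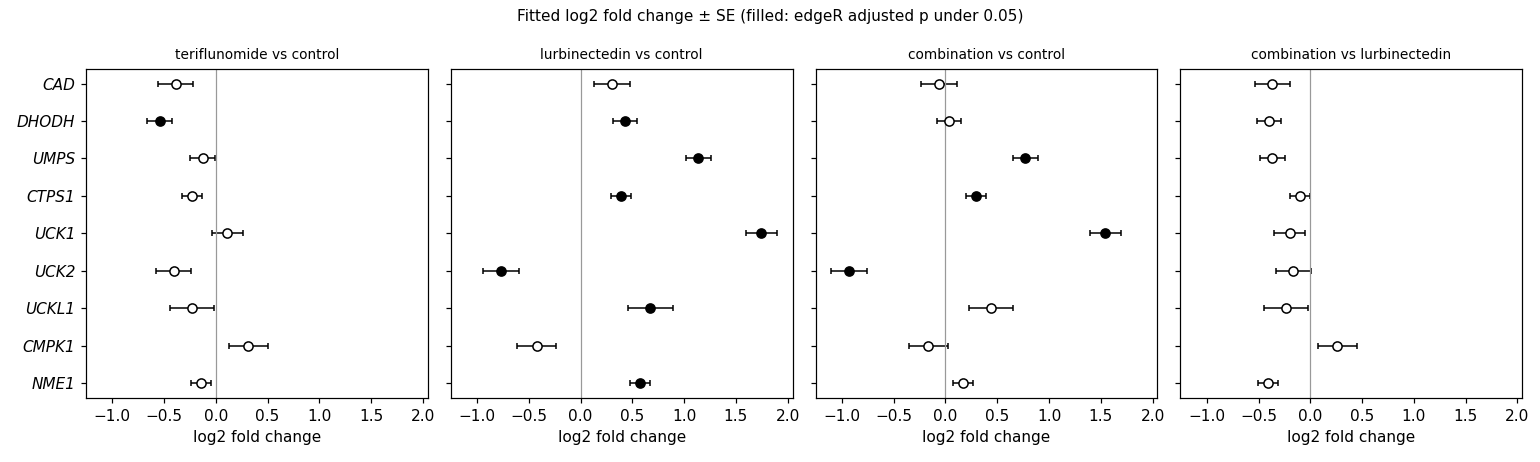
Fitted log2 fold changes of the 9 genes tested (points, with bars of 1 SE) for each treatment against control and for the combination against lurbinectedin, filled where the edgeR adjusted p was under 0.05. UCK1 and UMPS lie farthest above 0 with lurbinectedin (1.74 and 1.14) and UCK2 lies below 0 (-0.77).

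In the synthesis branch, DHODH (chr16:72008588-72027664, plus strand, ENSG00000102967.12) was called lower with teriflunomide, the only call of that comparison among the 9 genes tested. It was also called higher with lurbinectedin, where 36.0% of all genes tested were called higher. DHODH stood at 18.3, 17.8 and 19.2 CPM in the 3 control libraries and at 13.1, 12.96 and 11.9 with teriflunomide. With lurbinectedin it stood at 26.9, 23.5 and 24.2 CPM, and with both drugs at 16.5, 20.5 and 19.7. In CPM every teriflunomide library lay below every control library, every lurbinectedin library above, and the combination spanned the control range. In TPM the lurbinectedin libraries (8.56 to 9.66) lay below those of control (10.1 to 11.2). This difference from CPM comes from the scaling factor that all genes of a library share and is not particular to DHODH. The log2 fold change was -0.54 (SE 0.118, edgeR adjusted p = 0.0186) with teriflunomide and 0.43 (SE 0.117, edgeR adjusted p = 0.00435) with lurbinectedin. With both drugs it was 0.04 (SE 0.117, edgeR adjusted p = 0.801) against control. Against teriflunomide alone the combination was higher by 0.58 (SE 0.118, edgeR adjusted p = 0.000561), and against lurbinectedin alone it was -0.40 (SE 0.117, edgeR adjusted p = 0.172). The effect of teriflunomide beside lurbinectedin therefore had the same sign as its effect alone, and the interaction was 0.15 (SE 0.165, edgeR adjusted p = 0.832). For DHODH the teriflunomide call held without any one of the teriflunomide libraries (-0.50, edgeR adjusted p = 0.0118 without replicate 3). It was lost without any one control library, with adjusted p = 0.0671 to 0.104. It was also lost for DHODH with library size as the only scaling (-0.62, adjusted p = 0.0683) and with the replicate block (-0.54, adjusted p = 0.0568). The DHODH call with lurbinectedin was lost with library size as the only scaling (0.19, adjusted p = 0.281) and with no expression filter (0.36, adjusted p = 0.0791).

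UMPS (chr3:124730433-124749273, plus strand, ENSG00000114491.14), the last enzyme of UMP synthesis, rose with lurbinectedin. UMPS stood at 54.96, 54.2 and 52.97 CPM in the 3 control libraries and at 56.9, 52.4 and 39.4 with teriflunomide. The lurbinectedin libraries held 123, 114 and 120.0 CPM, and those of the combination 93.1, 92.9 and 90.5. The control and teriflunomide libraries overlapped, apart from a low teriflunomide replicate 3, and the combination lay between control and lurbinectedin without touching either. Its log2 fold change was 1.14 (SE 0.121, edgeR adjusted p = 1.27e-06) with lurbinectedin and 0.77 (SE 0.120, edgeR adjusted p = 6.10e-05) with the combination. Teriflunomide alone gave -0.12 (SE 0.120, edgeR adjusted p = 0.539), and the combination against lurbinectedin -0.37 (SE 0.119, edgeR adjusted p = 0.195). CAD (chr2:27217369-27243943, plus strand, ENSG00000084774.14), the first enzyme, was called in none of the comparisons. CAD stood at 198, 208 and 216 CPM in the 3 control libraries and at 185, 185 and 104 with teriflunomide. Its level was 254, 248 and 265 CPM with lurbinectedin and 196, 175 and 224 in the combination libraries. Its lurbinectedin libraries all lay above control, but the fitted change was 0.30 (SE 0.172, edgeR adjusted p = 0.129). Teriflunomide gave -0.39 (SE 0.173, edgeR adjusted p = 0.183), a value that became -0.16 for CAD without replicate 3, the library with the high mitochondrially encoded share.

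CTPS1 (chr1:40979688-41012565, plus strand, ENSG00000171793.16) held 99.6% to 100% of the per-length mRNA level of both CTP synthases in the libraries. CTPS1 stood at 204, 210.2 and 207 CPM in the 3 control libraries and at 195, 182 and 154 with teriflunomide. With lurbinectedin it stood at 269.8, 264 and 281 CPM, and with both drugs at 257, 236 and 268. Lurbinectedin and combination libraries lay above all control libraries and overlapped each other, and teriflunomide libraries lay below control. CTPS1 rose with lurbinectedin by 0.39 (SE 0.0971, edgeR adjusted p = 0.00246) and with the combination by 0.29 (SE 0.0970, edgeR adjusted p = 0.0155). With teriflunomide the value was -0.23 (SE 0.0970, edgeR adjusted p = 0.167), and the combination against lurbinectedin gave -0.10 (SE 0.0969, edgeR adjusted p = 0.650). With library size as the only scaling the CTPS1 value with lurbinectedin was 0.16 (adjusted p = 0.419), and without control replicate 1 the combination missed the threshold (adjusted p = 0.0597). CTPS2 (chrX:16587999-16712936, minus strand, ENSG00000047230.15) had 6, 4 and 7 counts in control and 13, 7 and 8 with teriflunomide. It had 0, 1 and 1 counts with lurbinectedin and 4, 1 and 1 with the combination. Summed and scaled for library size, CTPS2 was 6.72 times as high in control as with lurbinectedin, with a 95% exact interval of 1.60 to 60.0 that covers counting error only, and no test was made.

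Among the uridine-cytidine kinases, UCK1 and UCK2 moved in opposite directions with lurbinectedin. UCK1 (chr9:131523801-131531264, minus strand, ENSG00000130717.13) rose with lurbinectedin. UCK1 stood at 30.6, 30.2 and 29.2 CPM in the 3 control libraries and at 38.4, 35.2 and 23.4 with teriflunomide. The lurbinectedin libraries held 106, 94.7 and 101 CPM, and those of the combination 81.3, 89.7 and 91.4. All libraries with lurbinectedin, alone or combined, lay above all without it. The log2 fold change was 1.74 (SE 0.152, edgeR adjusted p = 1.70e-07) with lurbinectedin and 1.54 (SE 0.151, edgeR adjusted p = 6.75e-07) with the combination, and teriflunomide alone gave 0.11 (SE 0.149, edgeR adjusted p = 0.673). Without teriflunomide replicate 3 the UCK1 value with teriflunomide was 0.29 (edgeR adjusted p = 0.0475), and the interaction became -0.49 (adjusted p = 0.0323) from -0.31 (SE 0.209, edgeR adjusted p = 0.660). UCK2 (chr1:165827614-165911618, plus strand, ENSG00000143179.16), the kinase often raised in tumours, fell. UCK2 stood at 146, 148 and 152 CPM in the 3 control libraries and at 135, 123 and 77.8 with teriflunomide. Its level was 83.8, 86.6 and 91.05 CPM with lurbinectedin and 82.9, 63.5 and 86.98 in the combination libraries. All 6 libraries with lurbinectedin, alone or combined, lay below control, and teriflunomide replicate 3 lay among them. The log2 fold change was -0.77 (SE 0.170, edgeR adjusted p = 0.00107) with lurbinectedin and -0.93 (SE 0.171, edgeR adjusted p = 0.000254) with the combination, and teriflunomide gave -0.41 (SE 0.169, edgeR adjusted p = 0.158). For UCK2 the teriflunomide value was -0.20 without replicate 3. Exons of UCK2 overlap TMCO1 on the other strand over 142 bases (2.03% of its exon length) and ENSG00000236364 over 413 bases (5.91%), and it contains MIR3658. Those of UCK1 overlap POMT1 over 6 bases. Whether counting used strand is not given in the sources used here, so reads in these stretches cannot be told apart.

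UCKL1 (chr20:63939829-63956416, minus strand, ENSG00000198276.16), a kinase-like member of the family, rose with lurbinectedin. UCKL1 stood at 13.1, 13.00 and 13.7 CPM in the 3 control libraries and at 13.2, 13.7 and 6.98 with teriflunomide. With lurbinectedin it stood at 22.8, 20.6 and 20.2 CPM, and with both drugs at 14.99, 16.6 and 22.4. Lurbinectedin libraries lay above control by 0.67 (SE 0.213, edgeR adjusted p = 0.0114), or 0.44 (adjusted p = 0.193) for UCKL1 with library size as the only scaling. The combination gave 0.44 (SE 0.213, edgeR adjusted p = 0.0794), with libraries from just above control to the lurbinectedin range. Teriflunomide gave -0.23 (SE 0.214, edgeR adjusted p = 0.525), and its replicate 3 was far below the rest: without it the UCKL1 value was 0.02. UCKL1 exons overlap UCKL1-AS1 on the other strand over 157 bases (4.93%), and that row held 1 to 15 counts per library. They also hold MIR1914.

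As shares of the per-length level of the 3 kinases, which do not depend on the scaling between libraries, UCK2 held 57.4% to 58.9% in control and UCK1 29.5% to 31.3%. With lurbinectedin UCK1 held 65.2% to 67.3% and UCK2 20.5% to 22.9%, so UCK1 in place of UCK2 had the largest share. In the combination libraries the shares were similar, with UCK1 at 63.6% to 70.0% and UCK2 at 19.0% to 25.3%. Teriflunomide alone gave 37.4% to 39.5% for UCK1 and 50.3% to 51.2% for UCK2, outside the control ranges in all 3 libraries, replicate 3 included. UCKL1 stayed between 9.95% and 13.1% in all 12 libraries.

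**Figure D3:**
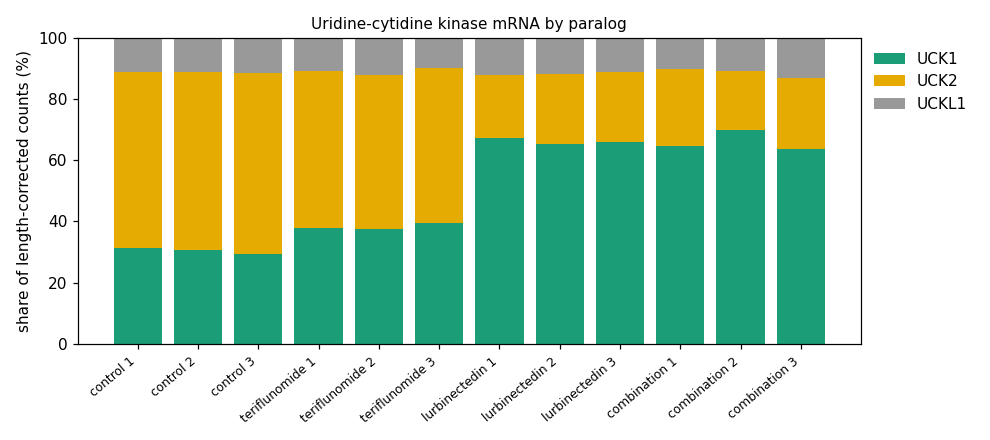
Share (%, vertical axis) of UCK1, UCK2 and UCKL1 in their summed per-length level in each of the 12 libraries, as stacked bars from 0 to 100. UCK2 is the larger part in the 6 libraries without lurbinectedin and UCK1 in the 6 with it.

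CMPK1 (chr1:47333790-47378839, plus strand, ENSG00000162368.14) phosphorylates UMP and CMP to the diphosphates. CMPK1 stood at 155, 166 and 148 CPM in the 3 control libraries and at 168, 162 and 253 with teriflunomide. The lurbinectedin libraries held 112, 127 and 109.7 CPM, and those of the combination 162, 158 and 98.5. Teriflunomide replicate 3 was far above the rest, and the lurbinectedin libraries were below control. The log2 fold change was -0.42 (SE 0.189, edgeR adjusted p = 0.0577) with lurbinectedin and 0.31 (SE 0.188, edgeR adjusted p = 0.319) with teriflunomide, the latter 0.08 for CMPK1 without replicate 3. The combination was lower than teriflunomide, at -0.48 (SE 0.189, edgeR adjusted p = 0.0353), and without teriflunomide replicate 3 that CMPK1 value was -0.25 (adjusted p = 0.162).

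NME1 (chr17:51153559-51162428, plus strand, ENSG00000239672.8), a nucleoside diphosphate kinase that makes UTP and CTP from their diphosphates, rose with lurbinectedin. NME1 stood at 81.97, 78.8 and 80.00 CPM in the 3 control libraries and at 75.9, 66.4 and 76.2 with teriflunomide. Its level was 129, 116 and 113 CPM with lurbinectedin and 88.6, 94.2 and 87.6 in the combination libraries. Its 4 groups did not overlap in the order teriflunomide, control, combination, lurbinectedin. The log2 fold change was 0.57 (SE 0.0946, edgeR adjusted p = 8.69e-05) with lurbinectedin, 0.17 (SE 0.0944, edgeR adjusted p = 0.131) with the combination and -0.14 (SE 0.0944, edgeR adjusted p = 0.371) with teriflunomide. The combination was -0.41 (SE 0.0945, edgeR adjusted p = 0.151) against lurbinectedin and 0.31 (SE 0.0945, edgeR adjusted p = 0.00970) against teriflunomide. NME1 shares 638 exon bases (18.7%) with the readthrough gene NME1-NME2 on the same strand. The related gene NME2 shares 603 of its exon bases (24.2%) with NME1-NME2, so reads may be split among these rows. With the 3 rows summed, NME1 rose with the combination by 0.25 (edgeR adjusted p = 0.0292).

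Set against teriflunomide alone, the combination was higher for UMPS by 0.89 (SE 0.120, edgeR adjusted p = 1.41e-05), for UCK1 by 1.43 (SE 0.1501, edgeR adjusted p = 1.24e-06) and for CTPS1 by 0.52 (SE 0.0972, edgeR adjusted p = 0.000268). It was also higher for UCKL1, by 0.67 (SE 0.214, edgeR adjusted p = 0.0119), and lower for UCK2, at -0.53 (SE 0.170, edgeR adjusted p = 0.0131). CAD gave 0.33 (SE 0.173, edgeR adjusted p = 0.106). The UCK2 call was lost without teriflunomide replicate 1 (adjusted p = 0.0657) or combination replicate 2 (0.0728), and that of UCKL1 without combination replicate 3 (0.0720). The NME1 call was lost without teriflunomide replicate 2 (adjusted p = 0.0635), and CAD passed without teriflunomide replicate 1 (0.0472) or 2 (0.0497).

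In edgeR's test no gene passed the threshold between the combination and lurbinectedin (DESeq2 called 2 of the 9, DHODH and NME1), and 5 of the 9, CAD, DHODH, UMPS, UCK1 and NME1, had all 3 combination libraries below all 3 lurbinectedin libraries, where 12.6% of all genes tested did. Their log2 fold changes ranged from -0.41 for NME1 to -0.20 for UCK1. The median over the 9 genes was -0.23, against 0.03 over all genes. With each library left out it ran from -0.35 (without combination replicate 3) to -0.18 (without lurbinectedin replicate 1). Without combination replicate 2 it was -0.22. Without teriflunomide replicate 3 and combination replicate 2, 4 of the 9 passed, all lower, where 21.5% of all genes passed and 10.1% were lower. DHODH was then at -0.45 (edgeR adjusted p = 0.00401), NME1 at -0.44 (0.000834), UMPS at -0.37 (0.00147) and CAD at -0.28 (0.00815). With teriflunomide alone, 5 of the 9 (CAD, DHODH, CTPS1, UCK2 and NME1) lay below control in every library, where 16.7% of all genes did, and the median over the 9 was -0.23 against 0.03 over all genes. Without teriflunomide replicate 3 that median was -0.14, against 0.01 over all genes.

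**Figure D4:**
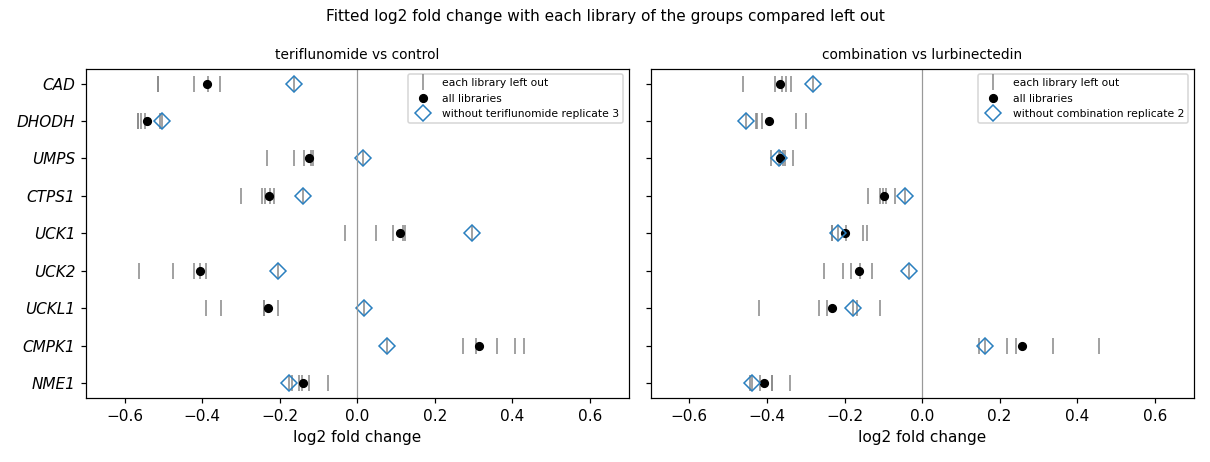
Fitted log2 fold changes of the 9 genes for teriflunomide against control (left) and the combination against lurbinectedin (right), with all libraries (filled circles) and with each library of the compared groups left out in turn (ticks). Diamonds mark the fit without the library of highest mitochondrially encoded share in the group: DHODH stays at -0.50 on the left, while UMPS and UCKL1 cross 0.

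The responses to lurbinectedin were set beside the length of each gene on the genome, from first to last annotated base. All tested nuclear genes were divided by this span into 5 bins of near-equal size. The median log2 fold change with lurbinectedin was 0.69 in the bin of shortest genes, then 0.62, 0.28 and -0.36, and -1.86 in that of the longest. UCK1 (7464 bases) and NME1 (8870) are in the bin with median 0.62. UCKL1 (16588), UMPS (18841), DHODH (19077), CAD (26575) and CTPS1 (32878) are in that with median 0.28. CMPK1 (45050) is in the bin with median -0.36, and UCK2 (84005), just past its lower edge of 82933, in that with median -1.86. UCK1, at 1.74, and UMPS, at 1.14, thus lay above the median of their bin, as did UCK2 at -0.77. Of the rest, UCKL1 at 0.67, DHODH at 0.43, CTPS1 at 0.39 and CAD at 0.30 lay above their bin's median, and NME1 at 0.57 and CMPK1 at -0.42 below it. The part of span in these values was not tested.

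**Figure D5:**
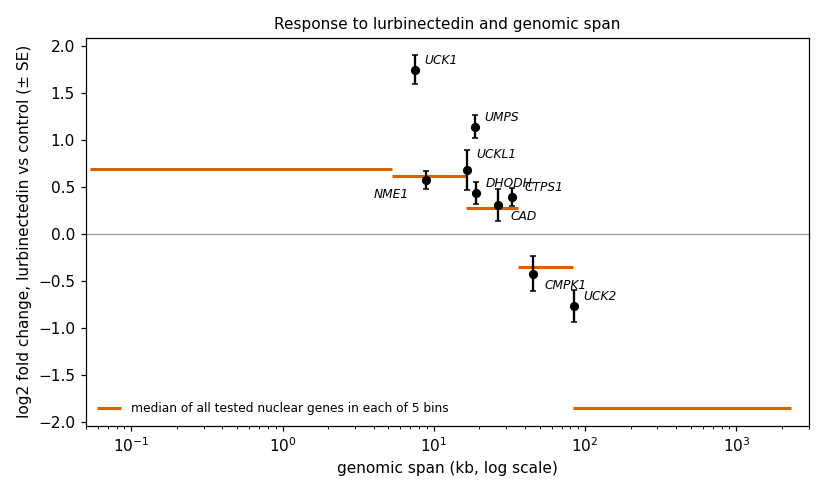
Log2 fold change with lurbinectedin (vertical axis, bars of 1 SE) against genomic span in kilobases (log axis) for the 9 genes tested; orange lines are medians of all tested nuclear genes in each of 5 bins of span. The 7 genes of shorter span lie above 0, and CMPK1 and UCK2 below it.

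Across the 12 libraries, the tested genes whose log2 CPM followed DHODH most closely were FKBP11 (Pearson r = 0.983), an endoplasmic reticulum prolyl isomerase, and MYBBP1A (0.976), a nucleolar protein. TUFM (0.975), the mitochondrial translation elongation factor, CCT4 (0.970), a chaperonin subunit, and EIF3G (0.969), a translation initiation factor subunit, came next. The libraries share treatments within groups, so these values describe the pattern over the 4 groups.

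Other genes of pyrimidine and ubiquinone metabolism were read from 6 lists of 46 genes. With teriflunomide, where 6.01% of all genes tested were called, RRM2B was the only tested gene of these lists called. RRM2B is the p53-regulated small subunit of ribonucleotide reductase. Its mean was 78.8 CPM in control and 154 with teriflunomide, a log2 change of 0.97 (SE 0.116, edgeR adjusted p = 0.000754). With lurbinectedin, where 71.6% of all genes tested were called, 36.0% higher and 35.7% lower, the deoxypyrimidine branch had 6 of 10 tested genes higher and 2 lower, with RRM2B at 261 CPM and RRM2, the replicative small subunit, at 639 against 233 in control (log2 change 1.46). Among nucleoside transporters 2 of 3 tested rose, with SLC29A1, the equilibrative uridine carrier, at 89.2 CPM against 39.5 (1.18), and SLC29A3 at 0.99. UPP1, which splits uridine to uracil, rose to 17.6 CPM from 6.91 (1.35), and DPYD, the first enzyme of uracil breakdown, fell to 0.185 from 4.30 (-4.47), the only genes tested of 7 on that list. Of the 5′-nucleotidases, 2 of 6 rose and 4 fell, among them NT5C2 (-1.78) and NT5E (-2.41). Of 11 ubiquinone genes, 3 rose and 6 fell, with PDSS2, which makes the side chain, at 0.245 CPM against 10.9 (-5.39) and COQ5 at 17.9 against 41.2 (-1.20). Of the other diphosphate kinases, 2 of 5 rose and 2 fell, with NME7 at 0.966 CPM against 29.003 (-4.88). NME2, which shares exon bases with NME1-NME2, was at 4.83 CPM against 1.03 (2.21). The median log2 fold change with lurbinectedin was 0.43 over the 9 genes of synthesis and salvage, 0.33 over the deoxypyrimidine branch and -0.48 over the ubiquinone genes, against 0.05 over all genes tested. The bins of span that hold most of the 9 genes had medians of 0.62 and 0.28, and the bin of longest genes -1.86. The part of span in the list medians was not tested.

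With the combination against control, where 68.4% of all genes tested were called, the called genes of the same lists were 6 higher and 1 lower in the deoxypyrimidine branch, 2 and 1 among transporters, and 1 and 1 in breakdown. They were 1 and 3 among nucleotidases, 3 and 7 in ubiquinone synthesis, and 1 and 2 among the other diphosphate kinases. RRM2B reached 303 CPM, SLC29A1 67.8 and UPP1 15.1, while PDSS2 stood at 0.243 and NME7 at 1.63. Against teriflunomide, where 70.9% of all genes were called, the combination had 4 higher and 1 lower in the deoxypyrimidine branch and 3 higher and 6 lower in ubiquinone synthesis. SLC29A2 was then among the 2 named transporters, with a log2 change of -1.25 (SE 0.372, edgeR adjusted p = 0.00792). Its level was low and its libraries overlapped, at 1.06 to 2.37 CPM with teriflunomide and 0.379 to 1.21 with the combination. None of the tested genes of these lists was called between the combination and lurbinectedin, where 0% of all genes were called. None was called in the interaction either, where 0.258% of all genes were.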

How the data were processed

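RNA-seq of 12 SBC3 spheroid libraries was analysed from gene read counts deposited by the authors, 1 table per library, grouped by the treatment label. Per the submitters' processing notes, fastp 0.23.2, STAR 2.7.9, Subread featureCounts and hg38 were used. Settings, strand use, the treatment of multi-mapping reads and the annotation release are not given in the sources used here. Per the labels' protocols, the RNeasy Plus Mini kit was used for RNA and the KAPA mRNA HyperPrep kit for libraries. Symbols matched 60463 gene identifiers (99.7%), and all 37318 identifiers with the same version in GENCODE 29 had its coordinates, so coordinates are GRCh38.

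Counts were tested with edgeR 4.0.16 (R 4.3.3, limma 3.58.1): filterByExpr on the 4 groups, TMM scaling, 1 mean per group over all 12 libraries, robust quasi-likelihood tests, 6 contrasts, and Benjamini-Hochberg adjustment over 16683 genes. The biological coefficient of variation was 14.49%. CPM uses TMM-scaled library sizes, TPM uses the exon lengths in the tables, and correlations used log2 CPM with a prior count of 2. Standard errors derive from the F statistic. Alternatives included DESeq2 1.42.0, other scalings and filters, a replicate block and each library left out. The script was tested on simulated data. The labels do not say whether replicates are separate cultures, so p-values measure only the spread between these samples, which may be technical. The 10 genes and the lists were chosen with earlier results of these data known. All 10 genes are named whatever their values. A further marker is not reported here. From each of the other lists at most 2 called genes of smallest adjusted p per comparison are named, and for DHODH the 5 tested genes of highest correlation.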

Additional observations from a re-analysis of the deposited data

How the results depend on the processing

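The number of the 9 tested genes called moved by over 1.5 times in 4 comparisons. With teriflunomide the count of 1 became 0 with library size as the only scaling or with the replicate block, 3 with no expression filter and 2 without teriflunomide replicate 3 and combination replicate 2, and it ran from 0 to 2 with each library left out. The combination against lurbinectedin called 2 with DESeq2 and 4 without those 2 libraries, an alternative chosen after seeing the data. The combination against teriflunomide called 4 when only the groups compared were fitted. The interaction called 2 without those 2 libraries and 0 to 1 with each library left out. Shares over all genes are given above for DESeq2 and for the fits without those 2 libraries. For the other settings no share is set beside these counts, so their moves are not read as particular to the 9.

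Library size as the only scaling moved the median of all genes with lurbinectedin from 0.05 to -0.18 on the log2 scale. The calls with lurbinectedin then split into 3 higher and 2 lower, without DHODH (0.19, edgeR adjusted p = 0.281), CTPS1 and UCKL1 and with CMPK1 (-0.66, adjusted p = 0.00166). No pairing by replicate number was seen: of 18 same-number pairs 1 had a correlation of deviations over 0.1 (range -0.402 to 0.144). The outlying teriflunomide replicate 3 and combination replicate 2 enter these correlations, so pairing could not be judged from them. With the replicate block the DHODH value with teriflunomide was -0.54 (adjusted p = 0.0568), and CMPK1 lost its call in the combination against teriflunomide.

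Values close to 0 changed sign. The UCKL1 interaction (-0.0025) was 0.018 with DESeq2 size factors and with DESeq2, 0.12 with library size only, 0.032 with no filter, 0.0027 with a filter at 1 CPM and 0.015 with the replicate block. With library size only, the combination against control gave -0.14 for DHODH and -0.0048 for NME1, and the interaction 0.10 for CMPK1. With no filter, DHODH in the combination was -0.026. Without the 2 libraries named above, teriflunomide gave 0.016 for UMPS and 0.017 for UCKL1, the combination against control 0.011 for CAD and -0.033 for DHODH, and the interaction -0.12 for CAD and 0.086 for CMPK1. With each library left out, teriflunomide ran from -0.23 to 0.01 for UMPS, -0.031 to 0.294 for UCK1 and -0.39 to 0.02 for UCKL1, and without those 2 libraries together it gave 0.296 for UCK1. The combination against control ran from -0.16 to 0.013 for CAD, -0.03 to 0.12 for DHODH and -0.29 to 0.032 for CMPK1. The interaction ran from -0.20 to 0.15 for CAD, -0.24 to 0.16 for UCKL1 and -0.17 to 0.19 for CMPK1. The cause of these changes was not tested. Of the single-gene values under all alternatives, 771 kept direction and side of the threshold, 28 lost their call, 27 gained one and 35 reversed. A group size of 3 libraries limits the precision, and CTPS2 was too shallow to test.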

Other observations

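The readthrough gene NME1-NME2, looked at after its values were seen, had 16, 13 and 18 counts in control and 14, 7 and 1 with teriflunomide. It had 130, 100 and 108 counts with lurbinectedin and 87, 88 and 92 with the combination. Its row was at 0.536, 0.435 and 0.538 CPM in control and at 6.30, 3.91 and 3.93 CPM with lurbinectedin, with no overlap between these groups. NME2 held 22 to 41 counts in control and 102 to 139 with lurbinectedin. How reads in shared exons were assigned is not given in the sources used here.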
